A study of Mus musculus with 8 samples.

Results

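The renal vesicle and segment-patterning transcription factors were 9 named genes, Pax8, Lhx1, Pou3f3, Irx1, Irx2, Irx3, Sim1, Emx1 and Emx2, chosen by symbol among 21291 gene rows. Polyadenylated RNA had been sequenced from kidney pairs of mouse embryos at E14.5, with 4 mutant and 4 control libraries. Mutants were Six2-GFPcre tg/+, Etv4-/- and Etv5fl/fl. Controls were described as littermates and were Six2-GFPcre tg/+, Etv4+/- and Etv5fl/fl. Both groups therefore carried the Cre transgene, expressed from Six2 in nephron progenitors, and the floxed Etv5 alleles, and as labelled they differed at Etv4, whose null allele is not limited to the nephron lineage. Etv4 and Etv5 are related ETS transcription factors whose expression responds to FGF and to GDNF acting through RET.

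As background, nephron progenitors are induced to aggregate, become epithelial as renal vesicles, and bend into comma-shaped and S-shaped bodies whose domains give rise to the podocytes and to the proximal, loop and distal segments. Pax8 and Lhx1 are switched on in pretubular aggregates and renal vesicles, and Pou3f3, the Irx genes and Sim1 mark later domains of the forming tubule. Hnf4a, which drives the proximal tubule programme, is switched on later in the same lineage and served here as the measure of how far tubules had advanced in each kidney pair. Pax8, Lhx1 and Emx2 are also expressed in the ureteric bud. In whole kidneys, fewer cells of a type and less RNA per cell cannot be told apart.

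Values are normalized counts, that is, estimated counts divided by a size factor for each library. Every library came from the kidneys of 1 embryo. Total estimated counts ran from 35308934 to 38824018 in mutants and from 15515139 to 39548327 in controls. Control 4 was the shallowest, and 18.4% of its counts came from Lars2, against at most 0.476% in the other libraries. Kidney markers were present in every library: Wt1 had 4012 to 5440 normalized counts in mutants and 2981 to 4987 in controls. Etv4 averaged 239 ± 59.8 in mutants and 2687 ± 251 in controls (SD, n = 4 each), and passed the limma test (log2 fold change −3.51, SE 0.18, adjusted p = 2.6e-05). Etv5 averaged 2120 ± 511 in mutants and 3614 ± 491 in controls, a difference of −0.79 in log2 (SE 0.18) that did not pass (limma adjusted p = 0.106). The Y-linked Ddx3y had 0 counts in every mutant and 1553 to 1629 normalized counts in controls, so genotype and sex cannot be told apart for any gene below. The p-values set the difference against the spread between embryos, with no term for litter or sex.

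All 9 factors were measured above 10 normalized counts in every library and entered the test. Every factor averaged higher on the log2 scale in mutants, and none passed the limma threshold of 0.05 over 14974 genes. Over all genes tested, 0.0801% were called higher and 0.22% lower at that threshold, and 51.7% had a positive log2 fold change. The members' median log2 fold change was 0.60, against 0.0087 over all genes. At an unadjusted limma p below 0.05, 4 of the 9 were higher (Pax8, Lhx1, Irx3 and Emx1), where 6.33% of all genes were. The authors' deposited table of 644 genes, of 21291 gene rows in the series, lists these same 4, all higher in mutants. Of its genes 383 were higher and 261 lower. In it Pax8 has a log2 fold change of 0.75 (adjusted p = 3.33e-14), Irx3 0.91 (0.000813), Emx1 1.84 (0.00586) and Lhx1 0.65 (0.0184). All genes in that table have an adjusted p of at most 0.0498. Its p-values were not recomputed here. That table may not rest on every library used here, and which libraries it used was not tested. Without control 4 the log2 fold changes found here were 0.75 for Pax8, 0.93 for Irx3, 1.64 for Emx1 and 0.71 for Lhx1.

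**Figure D1:**
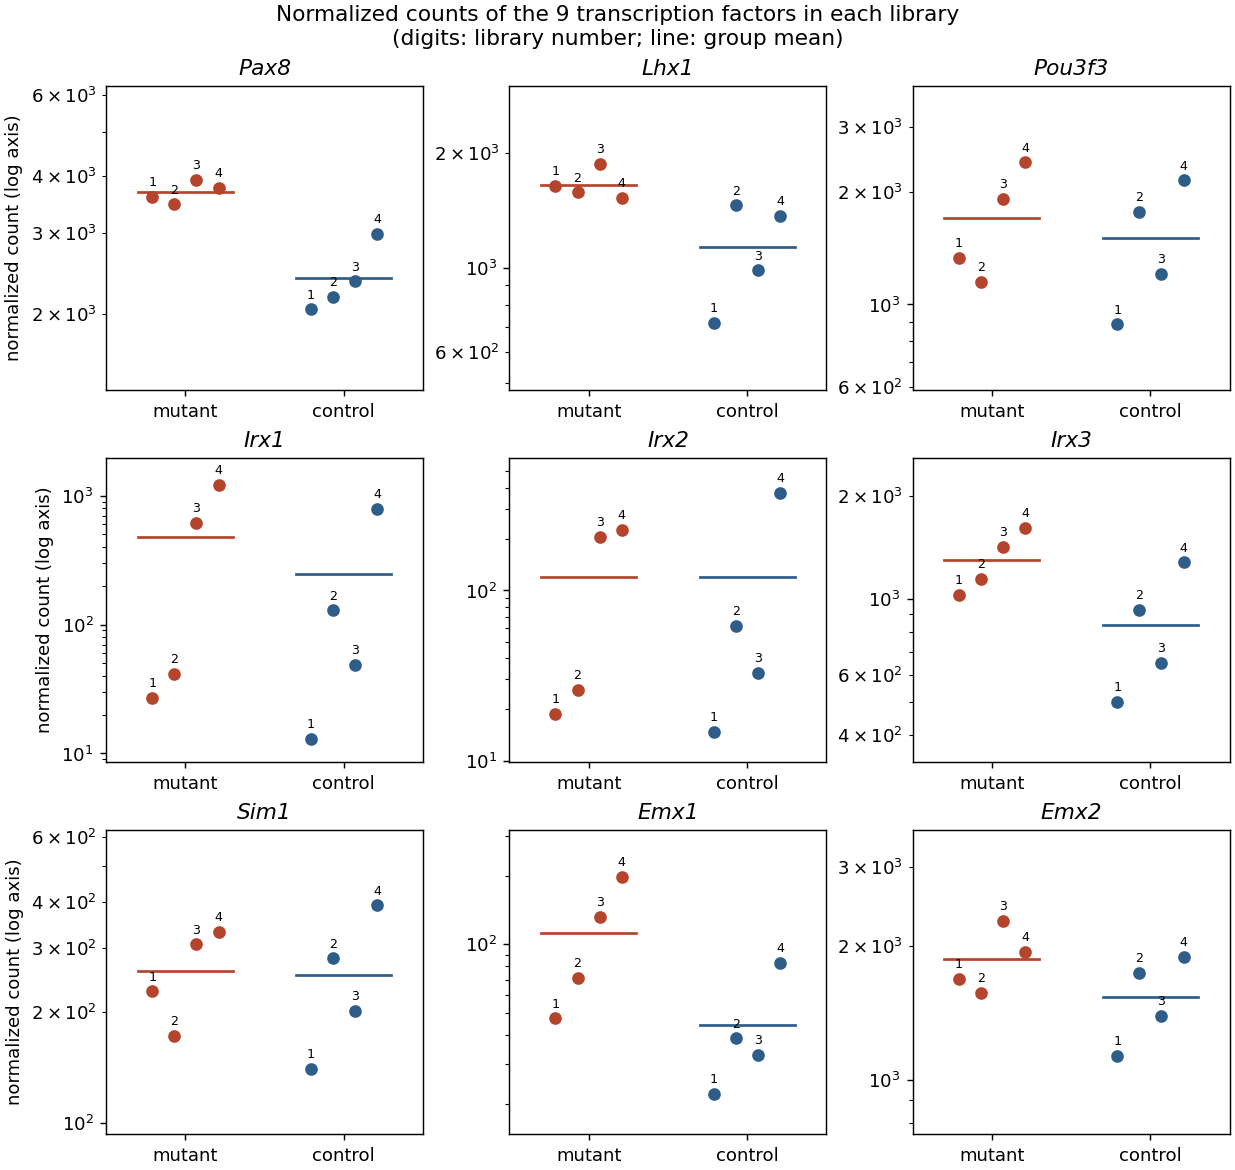
Normalized counts (log axis) of each factor in mutant and control libraries, with digits for the library number and lines for group means. Pax8 and Lhx1 are above every control in all 4 mutants, while Irx1 and Irx2 are lowest in control 1 and in mutants 1 and 2, and highest in mutants 3 and 4 and control 4.

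Pax8 encodes a paired-box factor that acts with Pax2 in the kidney lineage (ENSMUSG00000026976, chromosome 2, 24420560 to 24475599, minus strand, GRCm38). It had 3592, 3464, 3924 and 3758 normalized counts in mutants 1 to 4, against 2041, 2171, 2351 and 2989 in controls 1 to 4. Every mutant library was above every control library. Pax8 averaged 3684 ± 200.1 in mutants and 2388 ± 420.2 in controls (SD, n = 4 each), and its log2 fold change was 0.64 (SE 0.12, 95% interval 0.38 to 0.90, limma adjusted p = 0.0688). Without control 4, the control nearest to the mutants, the log2 fold change was 0.75 (adjusted p = 0.00407), and without any other single library the adjusted p ran from 0.117 to 0.241. With all 8 libraries Pax8 also passed with scaling to the total (0.0413), voom (0.0410), library weights (0.00145) and the replicate number as a block (0.0292), so the call depended on the method as well. The library names of mutants 1 and 2 and controls 1 and 2 share a number whose meaning the labels do not give, and among these the log2 difference was 0.74. The names of mutant 4 and control 4 share another, and between them it was 0.33. Its promoter is shown because Pax8 had the smallest p among the 9. The stretch is chr2:24475550-24475849 on the minus strand, 250 bases before the transcript start and 50 after, from RefSeq on GRCm38.p6, and it holds neither the ETS nor the TCF/LEF motif described with Pou3f3, so no letters are in capitals.
Pax8: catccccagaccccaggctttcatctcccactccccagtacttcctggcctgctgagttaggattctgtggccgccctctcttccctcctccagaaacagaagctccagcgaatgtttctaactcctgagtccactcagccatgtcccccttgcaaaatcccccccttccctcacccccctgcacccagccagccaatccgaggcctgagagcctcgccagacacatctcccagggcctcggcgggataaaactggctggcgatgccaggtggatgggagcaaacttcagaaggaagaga

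Lhx1 encodes a LIM-homeodomain factor needed for renal vesicles to progress (ENSMUSG00000018698, chromosome 11, 84518284 to 84525535, minus strand). It had 1640, 1575, 1869 and 1522 normalized counts in mutants 1 to 4, against 718, 1456, 984 and 1364 in controls 1 to 4. The groups did not overlap, but the lowest mutant and the highest control were close together and control 1 was well below the rest. The log2 fold change was 0.60 (SE 0.20, 95% interval 0.14 to 1.05, limma adjusted p = 0.273), and it was 0.40 without control 1. Pax8 and Lhx1 were the 2 of 9 factors whose mutants were all above the controls, as were 4.18% of all genes tested, and the groups were apart in either direction for 8.61%.

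Pou3f3 encodes a POU-domain factor, also called Brn1, that in mice is needed for the loop of Henle and distal nephron (ENSMUSG00000045515, chromosome 1, 42695768 to 42703176, plus strand). It had 1334, 1151, 1916 and 2407 normalized counts in mutants 1 to 4, against 884, 1772, 1205 and 2152 in controls 1 to 4. The groups overlapped almost entirely, and the log2 fold change was 0.20 (SE 0.30, 95% interval −0.47 to 0.87, limma adjusted p = 0.838). It was −0.028 without control 1. The Pou3f3 promoter is shown because it was the only 1 of 8 member promoters in the RefSeq table with a match to the ETS motif searched, CCGGAAG, drawn in capitals at base 104 of the window chr1:42695518-42695817 (plus strand, GRCm38.p6).
Pou3f3: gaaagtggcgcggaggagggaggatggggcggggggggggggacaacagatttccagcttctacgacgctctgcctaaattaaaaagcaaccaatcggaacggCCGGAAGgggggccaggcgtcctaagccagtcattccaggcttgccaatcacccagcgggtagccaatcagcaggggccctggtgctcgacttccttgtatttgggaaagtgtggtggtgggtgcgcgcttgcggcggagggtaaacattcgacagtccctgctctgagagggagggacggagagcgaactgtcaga
Over 32851 promoter windows of the same length, 8.86% held that motif on either strand. The TCF/LEF motif CTTTGAT was in 0 of 8 member promoters and 3.73% of all windows. A match is a description of letters and not a binding site.

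Irx1 and Irx2 encode Iroquois homeodomain factors that mark the intermediate part of the S-shaped body, and they are neighbours on chromosome 13 (Irx1, ENSMUSG00000060969, 71957921 to 71963723, minus strand; Irx2, ENSMUSG00000001504, 72628820 to 72634198, plus strand). Irx1 had 26.9, 41.6, 619 and 1219 normalized counts in mutants 1 to 4, against 12.9, 129, 48.5 and 794 in controls 1 to 4. Irx2 had 18.8, 26.1, 206 and 227 in mutants 1 to 4, against 14.7, 61.6, 32.6 and 374 in controls 1 to 4. Both genes put the libraries in the same order from control 1 up to mutant 3, and differed only in whether mutant 4 or control 4 was highest. Their spread was the widest of the 9: the highest library was 94.5 times the lowest for Irx1 and 25.3 times for Irx2, against 1.92 times for Pax8. The log2 fold change was 0.92 for Irx1 (SE 1.45, 95% interval −2.33 to 4.16, limma adjusted p = 0.845), and −0.022 without mutant 4. For Irx2 it was 0.26 (SE 1.08, 95% interval −2.16 to 2.67, adjusted p = 0.950), and its sign turned when control 1, control 3, mutant 3 or mutant 4 was left out. These intervals hold large changes in either direction.

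Irx3, a further Iroquois factor of the tubule from a separate cluster (ENSMUSG00000031734, chromosome 8, 91798525 to 91802067, minus strand), varied far less. It had 1028, 1142, 1421 and 1612 normalized counts in mutants 1 to 4, against 499, 926, 650 and 1279 in controls 1 to 4. Controls 1 to 3 were below every mutant, and control 4 lay between mutants 2 and 3. The log2 fold change was 0.70 (SE 0.27, 95% interval 0.10 to 1.30, limma adjusted p = 0.331).

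Sim1 encodes a basic helix-loop-helix and PAS domain factor that in zebrafish acts in the proximal nephron (ENSMUSG00000019913, chromosome 10, 50894754 to 50989152, plus strand). It had 228, 173, 306 and 330 normalized counts in mutants 1 to 4, against 140, 280, 202 and 390 in controls 1 to 4. Controls held both the lowest and the highest library. The log2 fold change was 0.091 (SE 0.32, 95% interval −0.62 to 0.81, limma adjusted p = 0.940), and its sign turned when control 1 (−0.16), mutant 3 or mutant 4 was left out.

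Emx1 and Emx2 are related homeobox genes. Emx2 is needed in mice for the ureteric bud to form a kidney, and emx1 marks the distal nephron in zebrafish. Emx1 (ENSMUSG00000033726, chromosome 6, 85187438 to 85204462, plus strand) had 47.3, 71.0, 132 and 198 normalized counts in mutants 1 to 4, against 22.1, 38.7, 32.6 and 83.0 in controls 1 to 4. All 4 mutants were above controls 1 to 3, and control 4 lay above mutants 1 and 2. Its log2 fold change of 1.29 was the largest of the 9 (SE 0.51, 95% interval 0.14 to 2.43, limma adjusted p = 0.351). The control values rest on few estimated counts, 24, 49, 35 and 30 in controls 1 to 4. Emx2 (ENSMUSG00000043969, chromosome 19, 59458372 to 59465357, plus strand) had 1684, 1567, 2272 and 1936 normalized counts in mutants 1 to 4, against 1132, 1737, 1391 and 1885 in controls 1 to 4. The groups overlapped, and its log2 fold change was 0.29 (SE 0.17, 95% interval −0.093 to 0.68, limma adjusted p = 0.538). It was 0.15 without control 1 and 0.19 without mutant 3.

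Per kilobase of merged exon, levels differed between the factors. In mutants, Emx2 averaged 621 and Pax8 608 normalized counts per kilobase, followed by Irx3 at 471, Lhx1 at 406, Pou3f3 at 230 and Irx1 at 182. Emx1 at 51.2, Irx2 at 36.4 and Sim1 at 30.1 per kilobase were lowest in mutants. In controls the same scale gave 512 for Emx2, 394 for Pax8, 304 for Irx3, 278 for Lhx1, 203 for Pou3f3 and 93.9 for Irx1, then 36.8 for Irx2, 29.4 for Sim1 and 20.2 for Emx1. Across libraries, the ranges of neighbours in each order overlapped, except those of Lhx1 and Pou3f3 in mutants. In the annotation, Pax8, Irx3 and Emx2 overlap a gene on the other strand (Gm13415, Irx3os and Emx2os) and Pou3f3 overlaps AC122898.1 on its own strand. These overlaps are of whole gene spans, and shared exon bases were not checked. No source used here says whether counting was by strand, so some reads of these genes may belong to the overlapping gene.

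For the other 8 factors the differences within libraries that share a number in their names were as follows. Among mutants 1 and 2 and controls 1 and 2 the log2 differences were 0.65 for Lhx1, −0.015 for Pou3f3, −0.30 for Irx1, −0.44 for Irx2, 0.67 for Irx3, 0.0019 for Sim1, 0.96 for Emx1 and 0.21 for Emx2. Between mutant 4 and control 4 they were 0.16 for Lhx1, 0.16 for Pou3f3, 0.62 for Irx1, −0.72 for Irx2, 0.33 for Irx3, −0.24 for Sim1, 1.24 for Emx1 and 0.038 for Emx2. Mutant 3 and control 3 carry numbers of their own.

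The factors were then set against the tubule maturity of each library. Hnf4a had 197, 282, 2263 and 4877 normalized counts in mutants 1 to 4, against 1.84, 194, 96.9 and 1547 in controls 1 to 4. Mutants 3 and 4 and control 4 were thus the libraries with high Hnf4a and control 1 stood lowest, also for each of the 9 factors. Irx3 and Emx1 put all 8 libraries in exactly the order of Hnf4a. In a limma fit with Hnf4a and genotype as terms, all 9 factors had a positive slope, as had 49.9% of all genes. The slope passed the threshold for 7 factors, against 4.46% of 14973 genes with a positive slope past it and 9.72% in either direction.

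**Figure D2:**
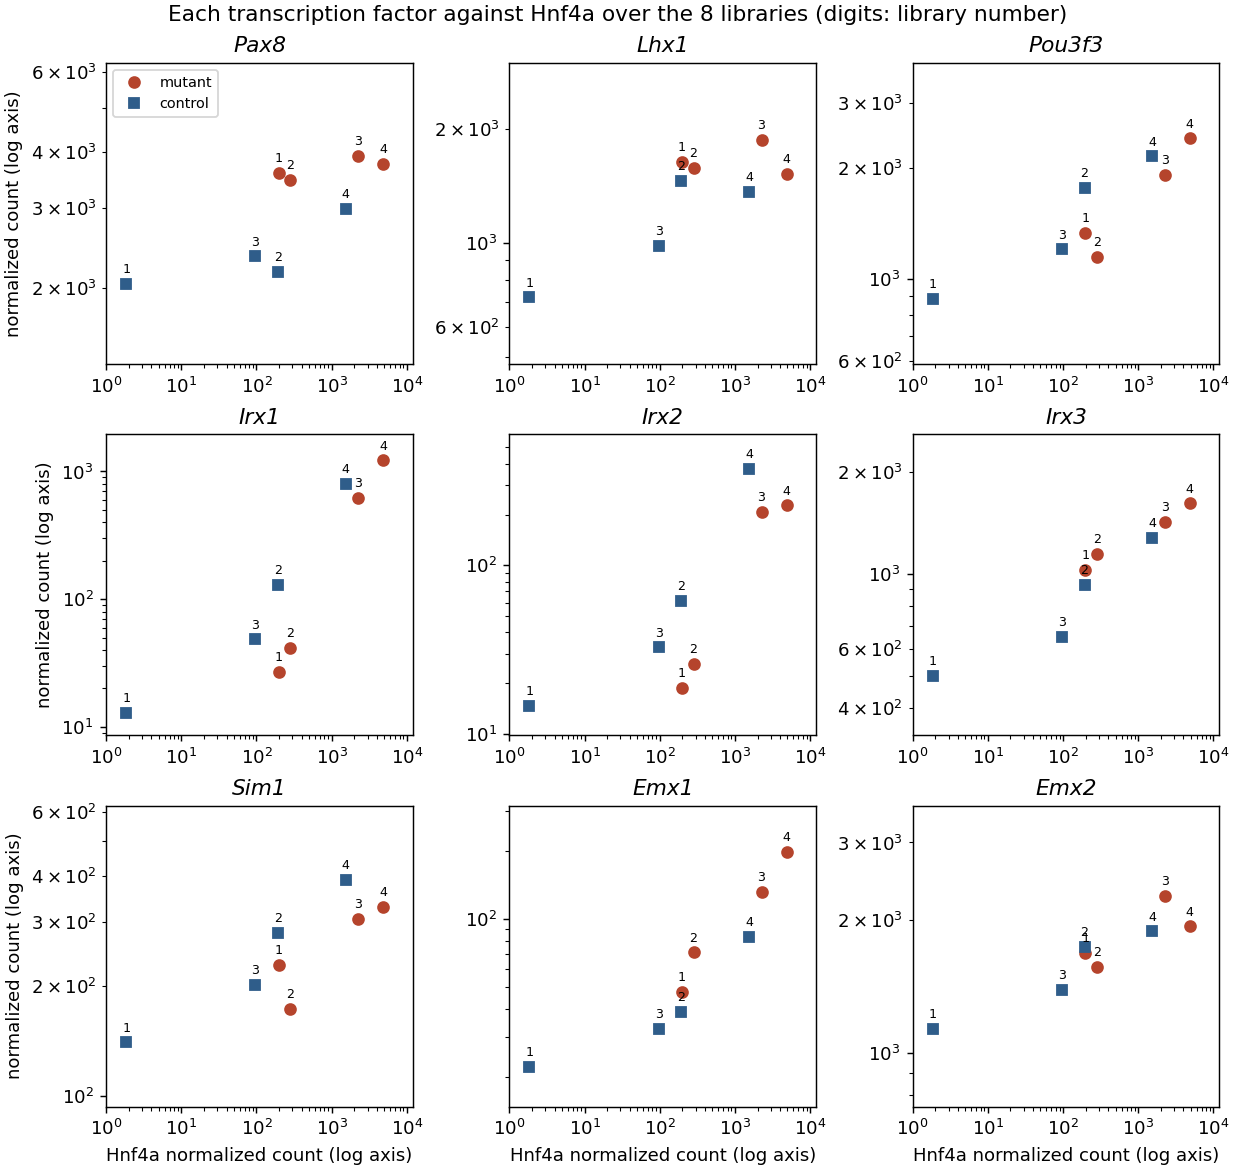
Normalized counts of each factor (log axis) against those of Hnf4a (log axis) in the 8 libraries, mutants as circles and controls as squares. Pax8 is higher in the 4 mutants than in any control, with Hnf4a at 197 to 4877 in mutants and 1.84 to 1547 in controls. Irx1 is lower in mutant 1 (26.9) than in control 2 (129), whose Hnf4a counts were 197 and 194.

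The slopes were steepest for Irx1, at 0.78 log2 units per log2 unit of Hnf4a (SE 0.099, limma adjusted p = 0.00512), and Irx2, at 0.57 (SE 0.085, adjusted p = 0.00862). Emx1 followed at 0.25 (SE 0.055, adjusted p = 0.0270), then Sim1 at 0.16 (SE 0.029, 0.0150), Pou3f3 at 0.16 (SE 0.022, 0.00594) and Irx3 at 0.14 (SE 0.019, 0.00594). Emx2, at 0.083 (SE 0.017, 0.0227), also passed. Lhx1, with the same slope of 0.084 (SE 0.026, 0.0676), and Pax8, with the shallowest at 0.047 (SE 0.015, 0.0767), did not. Pou3f3, Irx1 and Irx3 kept passing when any 1 of the 8 libraries was left out. Pou3f3 missed without control 1 and mutant 4 together (0.0526). Without control 4 alone, Irx2 (0.0738), Sim1 (0.0957), Emx1 (0.146) and Emx2 (0.103) no longer passed, so 3 factors were left. Emx1 was also lost without mutant 1, 2 or 4, and Emx2 without mutant 1, mutant 2 or control 1. The Hnf4a value of control 1 rests on 2 estimated counts. It lay 5.11 log2 units below the next library, in a range of 10.7. Without control 1 the slope was 1.12 for Irx1, 0.84 for Irx2 and 0.37 for Emx1. Pax8 passed without control 2 (0.0404), which raised the number of factors to 8, and its slope was 0.025 without control 4 (adjusted p = 0.384). The slope of Lhx1 was 0.034 without control 1 (adjusted p = 0.575). On simulated data more of the calls of this slope test fell on unchanged genes than its threshold allows. Without control 1 and mutant 4, the libraries farthest from the median of Hnf4a, Irx1 (slope 1.11), Irx2 (0.92) and Irx3 (0.18) passed and the slopes of all 9 stayed positive. With the number in the library name as a block, which left 2 residual degrees of freedom, limma called 0 genes and 0 of the 9 factors, while 866 genes and 7 factors had an unadjusted p below 0.05.

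With Hnf4a as a second term, Pax8 kept a positive log2 fold change of 0.49 (SE 0.096, 95% interval 0.28 to 0.70, limma adjusted p = 0.0697). Lhx1 was at 0.33 (SE 0.16), Irx3 at 0.24 (SE 0.12), Emx1 at 0.49 (SE 0.35) and Emx2 at 0.025 (SE 0.11). The signs of Irx1 (−1.58, SE 0.62), Irx2 (−1.56, SE 0.53), Sim1 (−0.43, SE 0.18) and Pou3f3 (−0.32, SE 0.14) turned negative. Hnf4a itself had a log2 fold change of 3.21 in the fit of genotype alone (SE 1.73, limma adjusted p = 0.504). Sizes and signs with the second term therefore depend on each factor's slope and on that difference in Hnf4a. Whether they reflect genotype was not tested. None of the 9 passed the limma threshold in this fit (adjusted p from 0.0697 to 0.929), in which 0.321% of all genes did. At an unadjusted limma p below 0.05, 1 factor was higher (Pax8), as were 9.15% of all genes, and 4 were lower (Pou3f3, Irx1, Irx2 and Sim1), as were 7.4% of all genes. The members' median was 0.025, against 0.013 over all genes. The libraries with nearest Hnf4a counts were mutant 1 (197) and control 2 (194), 1 library a group and so with no test. Mutant 1 was the higher for Pax8 (3592 against 2171), Lhx1 (1640 against 1456), Irx3 (1028 against 926) and Emx1 (47.3 against 38.7). It was the lower for Pou3f3 (1334 against 1772), Irx1 (26.9 against 129), Irx2 (18.8 against 61.6), Sim1 (228 against 280) and Emx2 (1684 against 1737).

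**Figure D3:**
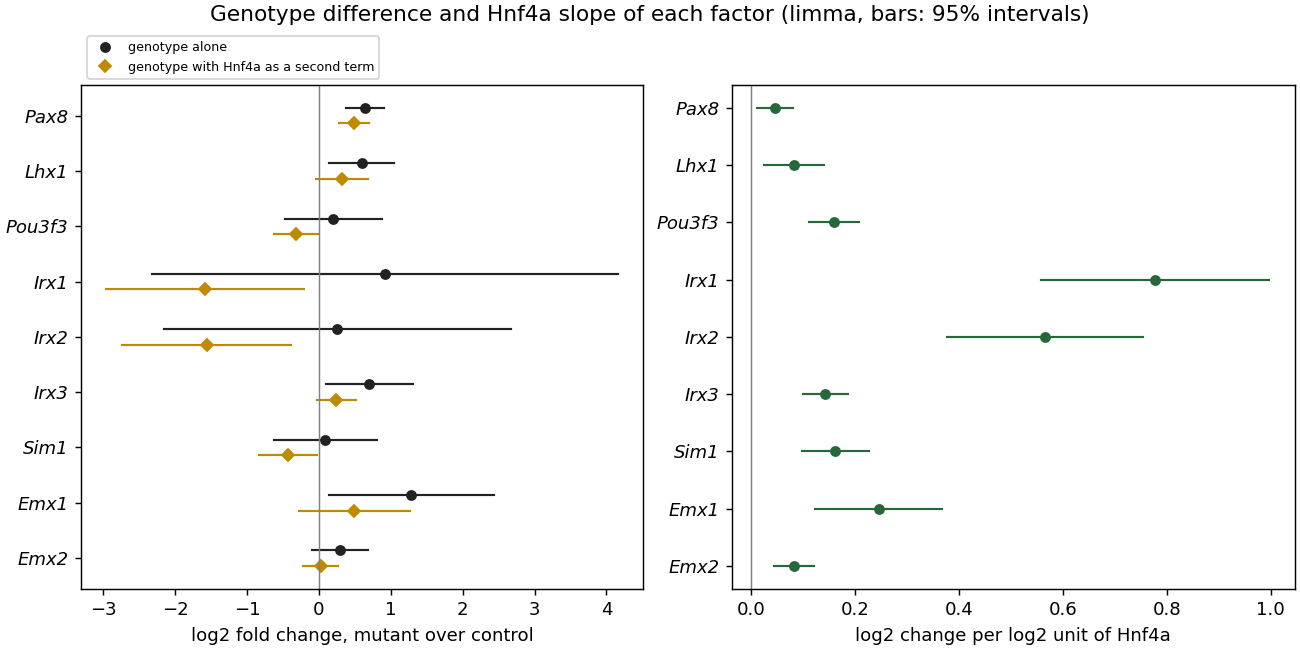
Left, log2 fold change of each factor, mutant over control, from genotype alone and with Hnf4a as a second term. Right, the slope on Hnf4a in log2 units per log2 unit, with 95% intervals as bars on both sides; Pax8 stays at 0.64 and 0.49 while Irx1 moves to −1.58 from 0.92 with the second term, and all 9 slopes are above 0.

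Genes of the early nephron outside the 9 factors were examined in the same fits. Of 24 such genes, all tested, 18 had positive and 6 negative log2 fold changes with a median of 0.34, and 0 passed the limma threshold. At an unadjusted p below 0.05, 11 were higher and 3 lower. Hey1, a Notch target, had 0.42 (SE 0.096), Npy 0.69 (SE 0.18), Cdh6, a cadherin of the renal vesicle, 0.94 (SE 0.24) and Jag1, a Notch ligand, 0.57 (SE 0.16), with limma adjusted p from 0.110 to 0.190. On Hnf4a, 9 of the 24 had a positive slope past the threshold and 1 (Ccnd2, −0.10) a negative one. Clec18a (0.28), the Notch ligand Dll1 (0.28) and the odd-skipped factor Osr2 (0.32) were among those with positive slopes, with limma adjusted p from 0.000133 to 0.00324. Clec18a, for example, had 895, 1013, 1701 and 2351 normalized counts in mutants 1 to 4, against 199, 640, 427 and 1143 in controls 1 to 4.

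**Figure D4:**
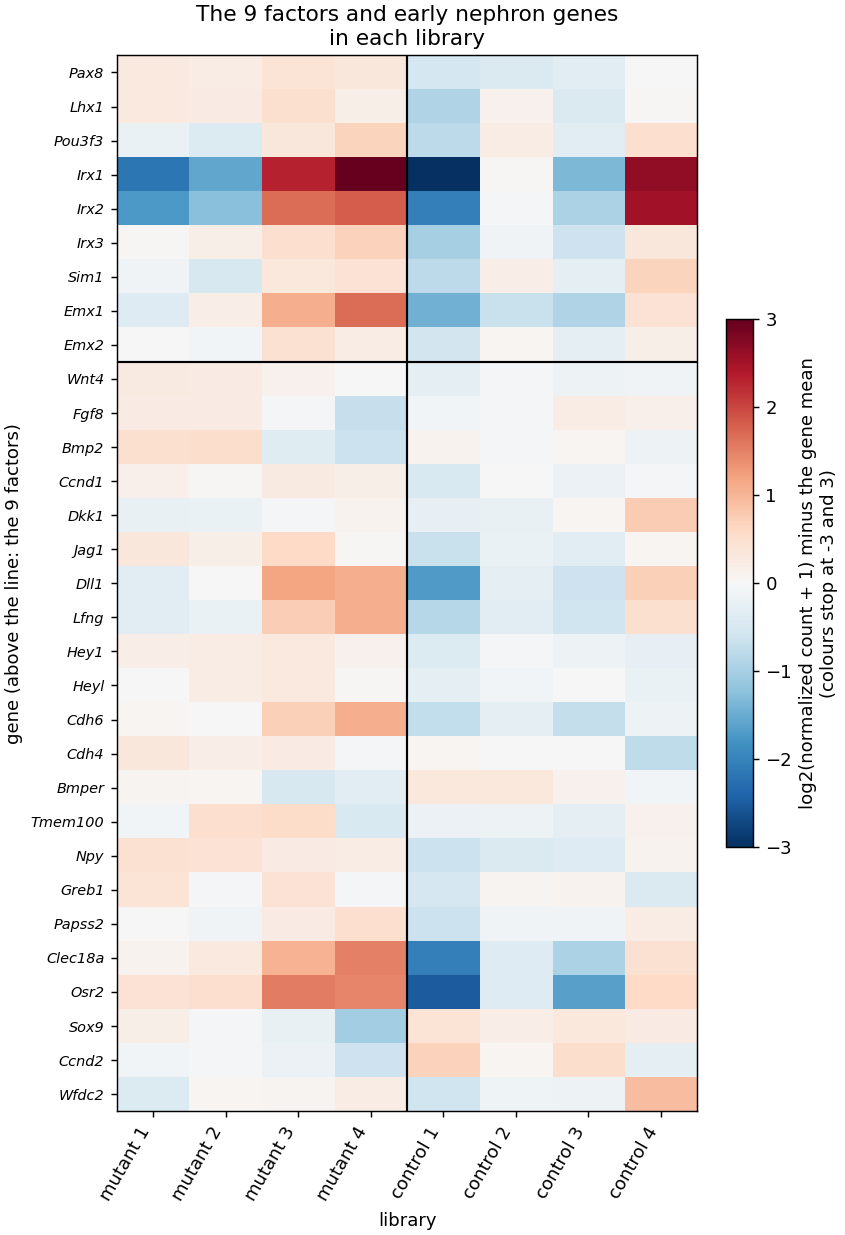
Log2(normalized count + 1) minus each gene's mean in the 8 libraries, for the 9 factors (above the line) and 22 of the 24 early nephron genes. Mutants are on the left; Irx1, Irx2, Emx1, Clec18a and Osr2 are lowest in control 1 and mostly high in mutants 3 and 4 and control 4, while Pax8 divides at the line between mutants and controls.

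Of 20 relatives, cofactors and genomic neighbours of the factors 14 were tested, 5 with positive and 9 with negative log2 fold changes and a median of −0.027, and 0 passed the limma threshold, with 1 higher at an unadjusted p below 0.05. That gene was Irx5, which lies in the cluster of Irx3, at 0.94 (SE 0.39, limma adjusted p = 0.378). It had 122, 138, 174 and 263 normalized counts in mutants 1 to 4, against 46.1, 87.7, 78.3 and 174 in controls 1 to 4, and its slope on Hnf4a was 0.20 (adjusted p = 0.0149). Pax2, the paralogue of Pax8 that progenitors and ureteric bud also express, had a slope of the opposite sign, −0.10 (SE 0.025, limma adjusted p = 0.0332), with 7377, 6659, 5258 and 3585 normalized counts in mutants 1 to 4 and 6830, 5377, 6667 and 4317 in controls 1 to 4. Pou3f1, a relative of Pou3f3, also had a negative slope (−0.18, adjusted p = 0.0241), and Sim2, a relative of Sim1, a positive one (0.36, adjusted p = 0.0401).

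Markers of other kidney cells also differed between libraries. All 10 nephron progenitor genes had negative log2 fold changes, and their summed normalized counts were 11086 to 19930 in mutants and 25487 to 46008 in controls. Capn6, Osr1 and Crym passed the limma threshold. Six2, Eya1, Osr1, Gdnf and Sall1 had negative slopes on Hnf4a past the threshold. Of 12 ureteric genes 7 had positive and 5 negative log2 fold changes, none past the limma threshold, and their sums overlapped (33630 to 36364 in mutants, 28614 to 39890 in controls), with Wnt11 at −0.84 and Tfcp2l1 at 0.45. All 9 podocyte genes tested had positive log2 fold changes, none past the limma threshold, and their sums were 19672 to 27953 in mutants and 16648 to 18349 in controls. Of 10 loop and distal genes 5 were tested, 1 with a positive log2 fold change, and their sums were 4807 to 5306 in mutants and 4455 to 5656 in controls. Mecom made up much of these sums (3124 to 3755 in mutants, 2469 to 3970 in controls), so they say little about the other loop and distal genes. On Hnf4a, Slc12a1 (1.04) and Sim2 (0.36) had positive slopes past the threshold and Wnk4 (−0.089) a negative one. The proximal tubule sums ran from 1523 to 16898 in mutants and from 649 to 6361 in controls, with Slc34a1 at 0 in mutants 1 and 2 and in controls 1 and 2. All 6 endothelial genes had positive log2 fold changes (sums 18438 to 21094 in mutants, 13145 to 17275 in controls). Of 8 stromal genes 6 were positive (137246 to 151351 in mutants, 78505 to 167146 in controls), and of 8 macrophage and erythroid genes 7 were (206761 to 365304 in mutants, 177637 to 281613 in controls). These last sums were mostly globin and say little about the macrophage genes. Hba-a1 alone had 99605 to 201230 in mutants and 85961 to 157000 in controls. The negative gene was Hba-a2, at 1818 and 1879 in mutants 3 and 4. Col1a1 made up much of the stromal sums (79564 to 84317 in mutants, 33734 to 110289 in controls). The part of these cell types in the levels of the 9 factors was not tested.

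The genes most like each factor were sought by Pearson's r of log2(normalized count + 1) over the 8 libraries, among 12480 named genes averaging at least 50 normalized counts. With so few libraries high values of r arise readily, and they are given as a measure of likeness alone. The nearest were Rnf135 (0.99) and C1qc (0.98) for Pax8, Pecam1 (0.98) and Sema3e (0.97) for Lhx1, and C1qtnf5 (0.99) and Tmem52b (0.98) for Pou3f3. They were Susd3 and Keg1 (0.99 each) for Irx1, Fhl1 and Scp2 (0.98 each) for Irx2, Rhcg and Clec18a (0.99 each) for Irx3, and Tmem52b and Ndfip2 (0.98 each) for Sim1. Emx1 was nearest to Sh2d4a and Wnt7b, and Emx2 to Sh3tc1 and Fzd1 (0.99 each). Among these, C1qc is on the macrophage and erythroid list, Pecam1 on the endothelial, Wnt7b on the ureteric and Clec18a on the early nephron list.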

How the data were processed

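Kidney pairs of 4 mutant and 4 control embryos gave polyA-selected, paired-read libraries, per the labels' protocols. The submitters' processing notes name kallisto 0.46.0, fastp 0.23.2, DESeq2 1.40.2 and the build mm10, without their roles. The deposited log2 values are, by their values, log2(estimated count + 1) without depth correction: 73.4% return whole numbers within 1e-06, and totals differ between libraries. The authors' second deposited table gives log2 fold changes and p-values, standard errors and test statistics (scores), and average levels (a signal).

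The log was undone, and size factors (0.361 to 1.27, median of ratios) corrected depth. The test was limma 3.58.1 (R 4.3.3; trend, two-sided) of log2(normalized count + 1), for the 14974 genes that reached 10 normalized counts in 4 or more libraries. P-values were adjusted by Benjamini-Hochberg, with 0.05 as threshold. Fold changes on the log2(normalized count + 1) scale understate changes of low genes. A further fit added log2 Hnf4a, with 14973 genes. A count test was not made the main test because the deposited unit is log2. Voom on the recovered counts was run as an alternative, and there Pax8 passed (limma voom adjusted p = 0.0410). The members, lists and tests were chosen with earlier results of these data known. The text names all 9 members, Hnf4a, Etv4 and Etv5, members of each list past the threshold or up to 4 with the smallest p, and the 2 most alike genes per member; genes named for their slope or with example counts were picked after their values were seen. In tests on simulated data, more of the slope calls fell on unchanged genes than the threshold allows. These data were drawn with the same dispersion (a setting of the spread between libraries) for every gene, so they may differ from the real data. Gene positions are those of GENCODE M21 (GRCm38, the assembly of mm10). Promoters come from RefSeq, with 8 of 9 members matched. Some genes and 1 motif are not reported here. Plots used matplotlib 3.10.9 (Python 3.11.15).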

Additional observations from a re-analysis of the deposited data

Results flagged for a closer look

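Dixon's test on normalized counts without logs was applied to 24 groups of 4 libraries, the mutants and the controls separately for each gene checked. It flagged 4 groups, all of control libraries, and in each of them control 4 stood apart from the other 3 controls. The mutant groups do not hold control 4. The chance rate of that test, about 1 in 20, holds for independent and normal values, which was not tested. Irx1 and Irx2 rose and fell together over the libraries (Pearson r 0.98). On the log2 scale Hnf4a was 1.51, 7.60, 6.61 and 10.6 in controls 1 to 4, so control 1 lay farther out than control 4. Control 4 had 794 normalized counts of Irx1, against 12.9 to 129 in the other controls. It had 374 of Irx2, against 14.7 to 61.6. It had 1547 of Hnf4a, against 1.84 to 194 in the other controls, and 2311 of Etv4, against 2803 to 2816. Control 4 was also the shallowest library, and the part of depth in these values was not tested.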

How the results depend on the processing

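The number of genes past the limma threshold for genotype, 45, was 11 with scaling to the total, 80 with no depth correction, 28 without trend, 748 with library weights, 68 with voom, 16 in mutants 1 and 2 and controls 1 and 2 alone, whose names share a number, 190 without mutant 4 and control 4, whose names share another, and 9 to 178 with a library left out. Of the 9 factors, 0 passed, against 1 (Pax8) with scaling to the total, with voom, in those 4 libraries alone and without that pair, 3 (Pax8, Lhx1 and Irx3) with library weights, and 0 to 1 with a library left out. With no depth correction the median of all genes shifted to 0.48, and that of the members was 1.07. The replicate block called 133 genes and 1 factor (Pax8, adjusted p = 0.0292). The labels do not say that replicate numbers pair embryos, and deviations of same-numbered libraries correlated at 0.27, 0.098, −0.13 and 0.35, so not every pair passed 0.1. Pairs 1, 2 and 4 also share the number in their library names, whose meaning the labels do not give, and pair 3 does not. Mutant 3 and control 3 did not correlate best with each other.

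Pax8, Lhx1, Irx3, Emx1 and Emx2 had positive log2 fold changes in all 25 alternatives. Signs turned with Hnf4a as a second term for Pou3f3 (−0.32), Irx1 (−1.58), Irx2 (−1.56) and Sim1 (−0.43), in mutants 1 and 2 and controls 1 and 2 alone for Pou3f3 (−0.015), Irx1 (−0.30) and Irx2 (−0.44), and with the library-name number as a block for Irx2 (−0.53) and Sim1 (−0.079). That block put Irx1 at 0.0061, Pou3f3 at 0.044 and Emx2 at 0.15. With a library left out, Pou3f3 ran from −0.028 to 0.40, Irx1 from −0.022 to 1.96, Irx2 from −0.38 to 1.14 and Sim1 from −0.16 to 0.33. The cause was not tested.

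For the slope on Hnf4a, 1455 genes and 7 factors passed, against 3041 genes with a proximal tubule score in place of Hnf4a, 395 genes and 3 factors without the libraries farthest from the median, and 84 to 1877 genes and 3 to 8 factors with a library left out. Among alternatives chosen after seeing the data, a pseudocount of 8 gave 2412 genes, and the library-name number as a block gave 0 genes and 0 factors. All 9 slopes were positive in all 13 alternatives. Fits that left out libraries kept the genes tested in the full fit.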
